A study of Mus musculus with 12 samples.

Results

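The genes described here make up the cellular machinery that degrades mRNA and carries out microRNA silencing, followed in the mouse hippocampus after aversive training. They are 43 named genes chosen by symbol, of 37991 genes in the count files and 16399 genes that passed the expression filter, and all 43 members passed it. The members comprise 11 genes of the microRNA step, 14 of deadenylation, 10 of decapping and 5′-to-3′ decay, 2 exosome nucleases and 6 genes of nonsense-mediated decay (NMD). Poly(A) RNA-seq libraries were available from the hippocampi of 12 C57BL/6N mice, 6 wild-type (*Gadd45a*-WT) and 6 *Gadd45a*-/- (*Gadd45a*-KO). The mice were siblings from heterozygote intercrosses, 6 to 7 months old by the sample labels, and every mouse of both groups was killed 1 h after the passive avoidance (PA) test, in which a mouse learns to avoid a compartment where it received a foot shock. No untrained mice are among these samples, so the comparison is between genotypes after training only. The KO allele is 1 germline line in which a neomycin cassette driven by the phosphoglycerate kinase promoter replaces the first 3 exons of *Gadd45a* in all cells.

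Most eukaryotic mRNAs die by a shared route. The poly(A) tail is shortened by the PAN2-PAN3 and CCR4-NOT deadenylases, the 5′ cap is then removed by DCP2, and the body is digested from the 5′ end by XRN1 or from the 3′ end by the exosome. MicroRNAs feed mRNAs into this route: Drosha and Dicer cut them from their precursors, an Argonaute protein carries them to a target, and a GW182 protein (the *Tnrc6* genes) recruits CCR4-NOT. NMD is a parallel entry for mRNAs with a premature stop codon and for a set of normal transcripts, and in neurons these pathways are known to act on mRNAs that are translated locally near synapses.

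Between 44594261 and 55540601 reads per library fell on genes, and by an exact two-sided permutation test this depth did not differ between the labels (p = 0.45). Reads on both genes at the targeted locus separated the labels without overlap, but those on *Gadd45a* itself were higher under the KO label. *Gadd45a* (ENSMUSG00000036390) had 2.19 to 3.43 CPM (counts scaled to library size) under the *Gadd45a*-WT label and 20.5 to 23.1 CPM under the *Gadd45a*-KO label. The antisense gene *E230016M11Rik* (ENSMUSG00000087231), which overlaps it, had 3.27 to 3.88 CPM and 0.0760 to 0.270 CPM, respectively. Counts per gene do not separate the deleted exons from the exon that remains, so the genotypes could not be checked from these reads. Libraries are therefore named by label, as WT-labelled and KO-labelled, and every direction below is KO-labelled relative to WT-labelled. Of 33 marker genes of hippocampal and neighbouring cell types in 9 lists, none passed 1% FDR in either direction. The neuronal markers were abundant in every library (summed level 4011 to 4999 CPM). The median log2 fold change of a list nevertheless ran from -0.25 (CA pyramidal neurons) to 0.91 (thalamus), with 0.45 for oligodendrocytes. The part of cell mixture in the levels below was not tested. The KO-labelled replicates 2 and 3 stood apart by thalamic markers, whose sum was 201 and 309 CPM there against 51.4 to 89.5 CPM in the other 10 libraries. In addition, replicate 3 had 5713 CPM of summed oligodendrocyte markers against 1849 to 2916 CPM in the others.

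A total of 6 genes of the machinery were lower in the KO-labelled hippocampi at 1% FDR and none was higher. They were *Dicer1*, *Ago3* and *Tnrc6b* of the microRNA step, the decapping enzyme *Dcp2*, the cytoplasmic 5′-to-3′ exonuclease *Xrn1*, and the NMD kinase *Smg1*. *Xrn1* fell by 1.29 on the log2 scale and the other 5 by 0.32 to 0.39. The 6 genes are 13.95% of the members, while 2.62% of all tested genes were lower at 1% FDR and 0.0244% were higher (edgeR quasi-likelihood test with Benjamini-Hochberg adjustment over 16399 genes). These shares are not like for like, since the members were chosen with earlier results of these data known. The members also have longer transcripts (median 4.78 kb against 3.00 kb), and of tested genes from 4.77 kb in length 8.89% were lower. At 5% FDR 9 members were lower (20.93%, against 4.43% of all tested genes) and again none was higher (0.122% of all tested genes), the additional genes being *Ago2*, *Tnrc6c* and *Cnot1*. In 8 members every KO-labelled library lay below every WT-labelled library, which was so for 3.12% of all tested genes. The median log2 fold change was -0.04 over the 43 members and 0.003 over all tested genes, and 37 members had a value below 0. These are levels in whole tissue, in which fewer cells of a type and less RNA per cell cannot be told apart. The replicates come from separate mice, and one hippocampal RNA sample was sequenced per mouse.

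**Figure D1:**
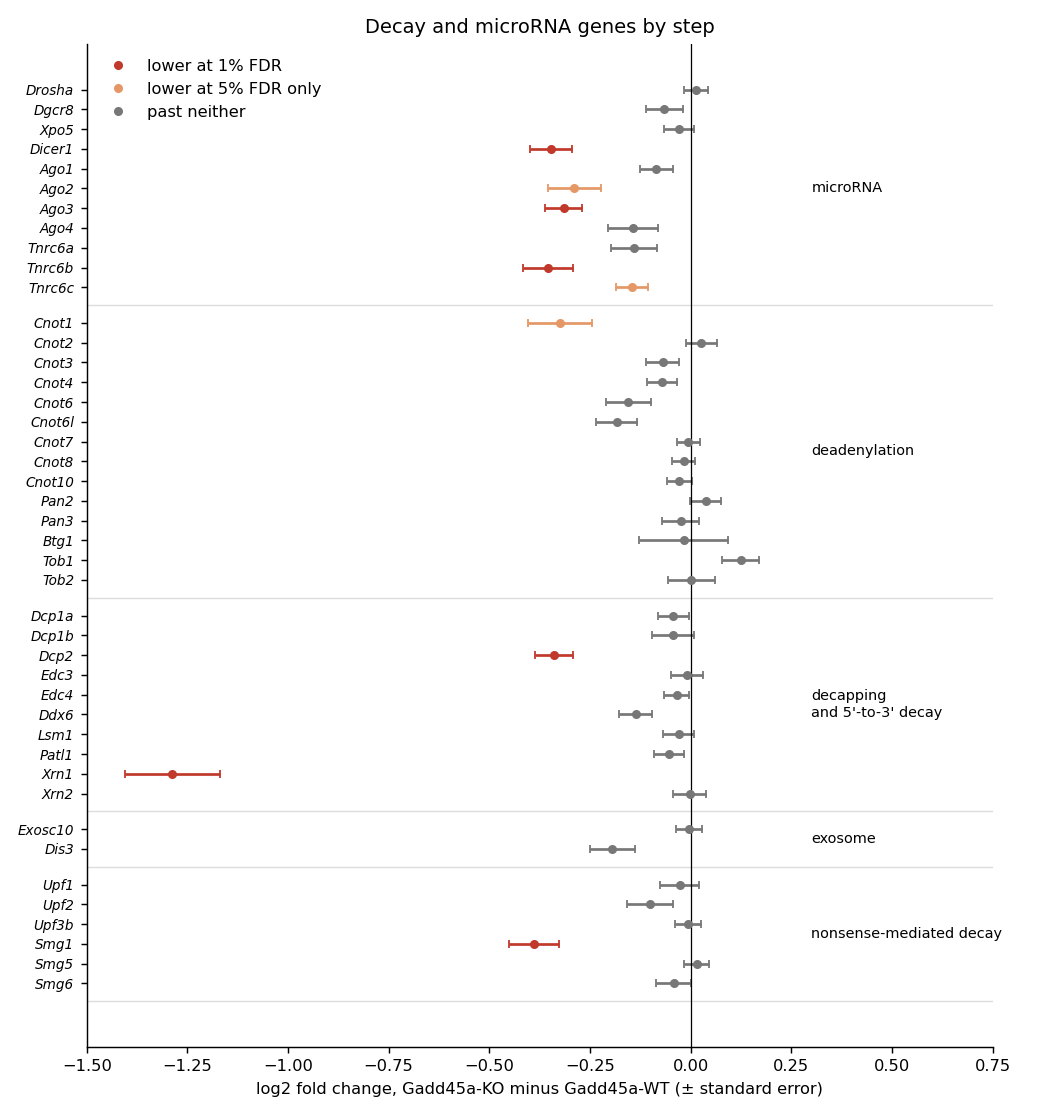
Log2 fold change of each of the 43 members (x axis, KO-labelled minus WT-labelled, with its standard error), grouped by step, from 6 libraries per label. Red points are the 6 members lower at 1% FDR, orange points the 3 lower at 5% FDR only, and grey points the members past neither threshold; *Xrn1* at -1.29 lies far to the left of the others.

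To show what lies in front of these genes, the region from 100 bases before to 50 bases after the annotated start is printed for 4 of the 6 lower members (RefSeq, GRCm38.p6, read 5′ to 3′ on the strand of the gene). Capitals mark the GC box GGGCGG, the core site of Sp1-type factors, on either strand, and in *Ago3* also the ETS motif CCGGAAG, which lies on the other strand.
*Dicer1*, chr12:104751903-104752052, minus strand: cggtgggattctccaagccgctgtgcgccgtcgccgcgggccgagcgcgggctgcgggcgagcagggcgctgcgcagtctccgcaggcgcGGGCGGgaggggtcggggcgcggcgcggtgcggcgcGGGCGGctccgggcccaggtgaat
*Ago3*, chr4:126429493-126429642, minus strand: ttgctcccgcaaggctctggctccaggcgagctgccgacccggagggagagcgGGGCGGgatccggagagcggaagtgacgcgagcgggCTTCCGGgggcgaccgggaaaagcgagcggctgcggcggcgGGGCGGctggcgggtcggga
*Xrn1*, chr9:95954660-95954809, plus strand: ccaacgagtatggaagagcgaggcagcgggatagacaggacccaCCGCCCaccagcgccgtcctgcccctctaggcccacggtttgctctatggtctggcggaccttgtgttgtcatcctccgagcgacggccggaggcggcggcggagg
*Smg1*, chr7:118243588-118243737, minus strand: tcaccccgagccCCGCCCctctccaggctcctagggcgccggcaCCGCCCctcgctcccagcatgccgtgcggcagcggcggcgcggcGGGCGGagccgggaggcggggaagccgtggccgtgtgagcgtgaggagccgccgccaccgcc
All 4 stretches hold a GC box and none holds a TATA box. *Tnrc6b* has 2 listed promoters, which are not printed because the bases after neither start were found in a transcript of the annotation used; 1 holds a GC box and a CCAAT motif, and the other holds an E-box and no GC box. Promoters were found by symbol for 37 of the 43 members, and the first listed promoter of each was searched. The GC box occurred in 22 of the 37 (59.5%) and in 28.8% of 32851 promoters of the same length, and the median GC content was 67.3% against 54.7%. The ETS motif was present in 6 of 37 (16.2% against 6.59%), the CCAAT motif in 8 (21.6% against 23.4%), the TATA box TATAAA in 2 (5.41% against 6.94%), the E-box CACGTG in 1 (2.70% against 4.35%) and the cAMP response element TGACGTCA in 0 (against 1.4%). Both strands were searched, and overlapping matches of different motifs were all counted. Members that were not lower thus held the GC box too, and a match is a description of the letters only. The 32851 promoters are all those listed and were not limited to genes expressed here, whereas all members passed the expression filter. The shares are therefore no measure of a trait particular to these genes.

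Of the 4 genes that produce microRNAs, *Dicer1* was the only one past the threshold. *Dicer1* (ENSMUSG00000041415; NCBIM37 chromosome 12, 105925952 to 105990162, minus strand) encodes the RNase III enzyme that cuts precursor hairpins into mature microRNAs in the cytoplasm. Its level was 81.0, 89.7 and 102 CPM (lowest, median and highest) in the WT-labelled libraries and 67.6, 71.3 and 79.2 CPM in the KO-labelled ones. The groups did not overlap, with a difference of -0.35 on the log2 scale (standard error 0.05, edgeR adjusted p = 0.00115, n = 6 per label). *Dicer1* missed 1% FDR without the KO-labelled replicates 2 and 3, with a log2 fold change of -0.32 and an adjusted p of 0.0112. The nuclear enzyme *Drosha*, which makes the hairpins, had 113, 115 and 123 CPM against 115, 117 and 120 CPM. Its log2 fold change of 0.01 (standard error 0.03) was the highest of the microRNA step. *Dgcr8*, the RNA-binding partner of Drosha, had -0.07 (standard error 0.05), and *Xpo5*, which exports hairpins from the nucleus, -0.03 (standard error 0.04), both with overlapping groups.

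The 4 Argonaute genes all had log2 fold changes below 0, and *Ago3* alone passed 1% FDR. *Ago1*, *Ago3* and *Ago4* lie side by side on the minus strand of chromosome 4 between 126008948 and 126210716 (NCBIM37), whereas *Ago2*, the only Argonaute of the 4 known as an efficient target-cleaving enzyme in mammals, lies on chromosome 15. *Ago3* (ENSMUSG00000028842) had 66.5, 71.4 and 79.96 CPM in WT-labelled and 55.3, 58.0 and 60.4 CPM in KO-labelled libraries. Every KO-labelled value was below every WT-labelled value (log2 fold change -0.32, standard error 0.05, edgeR adjusted p = 0.000845, n = 6 per label). *Ago2* (ENSMUSG00000036698) had 109, 124 and 141 CPM against 92.0, 102 and 109 CPM. Its groups also did not overlap, with -0.29 (standard error 0.07), but the adjusted p of 0.0178 by edgeR passed 5% FDR only. Without the WT-labelled replicate 1, which had the lowest *Ago2* level of its group, *Ago2* passed 1% FDR. It missed 5% FDR without KO-labelled replicates 2 and 3 (-0.23, edgeR adjusted p = 0.118). The same held with a smooth offset for transcript length in each library (-0.20, edgeR adjusted p = 0.065).

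The neighbours of *Ago3* passed neither threshold and their groups overlapped. *Ago1* had 139, 149 and 159 CPM against 130, 139 and 150 CPM (log2 fold change -0.09, standard error 0.04, edgeR adjusted p = 0.399). *Ago4* had 20.6, 23.6 and 26.4 CPM against 19.9, 20.97 and 23.0 CPM (log2 fold change -0.14, standard error 0.06, edgeR adjusted p = 0.30). On CPM per kilobase of annotated exon, the summed Argonaute level was 40.7 ± 2.87 in WT-labelled and 35.8 ± 1.80 in KO-labelled libraries (SD, n = 6 each). The paper expects read coverage after poly(A) selection to thin out away from the 3′ end where RNA is partly fragmented. Levels and shares of genes of unlike length are therefore compared only roughly on this scale, here and below. The order by this scale was *Ago1* (17.9 and 16.9), *Ago2* (15.4 and 12.6), *Ago3* (4.33 and 3.48) and *Ago4* (3.08 and 2.79), in WT- and KO-labelled libraries respectively. *Ago3* thus made up 10.4 to 10.8% of the summed Argonaute level in WT-labelled libraries and 9.47 to 9.97% in KO-labelled ones, without overlap. The share of *Ago1* was 42.6 to 46.4% against 45.3 to 48.7%, with overlap.

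The 3 GW182 genes encode the scaffolds that link Argonaute to the deadenylases. *Tnrc6b* (ENSMUSG00000047888; NCBIM37 chromosome 15, 80590016 to 80771516, plus strand) had 121, 136 and 156 CPM in WT-labelled and 99.2, 107 and 119 CPM in KO-labelled libraries. The groups did not overlap (log2 fold change -0.35, standard error 0.06, edgeR adjusted p = 0.00343, n = 6 per label), although the highest KO-labelled library was close to the lowest WT-labelled one. *Tnrc6b* was the least stable of the 6 calls. It missed 1% FDR in 5 of the 12 fits that left out 1 library (WT-labelled replicate 3 or 5, KO-labelled replicate 1, 2 or 6; log2 fold change -0.38 to -0.31 over all 12) and without both KO-labelled replicates 2 and 3 (-0.31, edgeR adjusted p = 0.0277). A smooth offset for transcript length in each library reduced it to -0.15 (edgeR adjusted p = 0.08).

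*Tnrc6c* had 180, 184 and 191 CPM against 151, 172 and 174 CPM, again without overlap. Its change was small (log2 fold change -0.15, standard error 0.04), and it passed 5% FDR only (edgeR adjusted p = 0.0495). With the length offset the *Tnrc6c* value was -0.003 (edgeR adjusted p = 0.991). It also missed 5% FDR without the WT-labelled replicate 6 (-0.13, edgeR adjusted p = 0.134). The same held without KO-labelled replicates 2 and 3 (-0.09, edgeR adjusted p = 0.234). With DESeq2 it stayed past 5% FDR only (-0.14, DESeq2 adjusted p = 0.0132). *Tnrc6a* had 97.6, 102 and 116 CPM against 83.7, 93.4 and 107 CPM with overlap, for -0.14 (standard error 0.06, edgeR adjusted p = 0.268). Per kilobase the summed GW182 level was 35.0 ± 1.83 and 30.7 ± 1.58 (SD, n = 6 each). *Tnrc6b* supplied 21.5 to 24.4% of it in WT-labelled and 19.8 to 21.2% in KO-labelled libraries, and the shares of *Tnrc6a* and *Tnrc6c* overlapped.

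**Figure D2:**
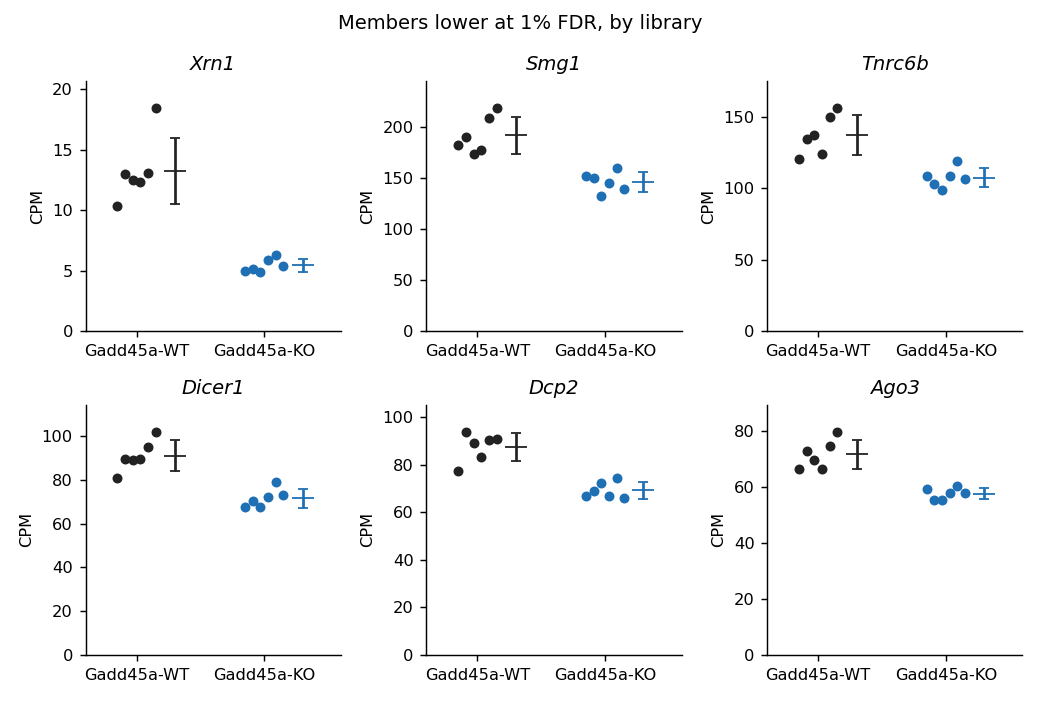
Level in CPM (y axis, from 0) of the 6 members lower at 1% FDR in each WT-labelled (black) and KO-labelled (blue) library, with the mean and SD of 6 libraries beside the points. In each panel the KO-labelled points lie below the WT-labelled ones, most widely apart for *Xrn1* (10.3 to 18.5 against 4.90 to 6.33 CPM).

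None of the 14 deadenylation genes passed 1% FDR, and their median log2 fold change was -0.02. The lowest was *Cnot1* (ENSMUSG00000036550), the scaffold on which the CCR4-NOT complex assembles. *Cnot1* had 126, 144 and 164 CPM in WT-labelled libraries and 103, 116 and 137 CPM in KO-labelled ones, where 5 of 6 libraries lay below all WT-labelled ones and replicate 5 did not. The log2 fold change of -0.32 (standard error 0.08) was as large as that of *Ago3*, but the spread within both groups was wider, and it passed 5% FDR only (edgeR adjusted p = 0.0268). Without the KO-labelled replicate 5 it passed 1% FDR. Without the WT-labelled replicate 6 it missed 5% FDR (-0.29, edgeR adjusted p = 0.082). *Cnot1* also missed 5% FDR without KO-labelled replicates 2 and 3 (-0.27, edgeR adjusted p = 0.156) and with the length offset (-0.23, edgeR adjusted p = 0.105).

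The CCR4-type deadenylases *Cnot6* and *Cnot6l* had values below 0 and the CAF1-type deadenylases *Cnot7* and *Cnot8* values near it. *Cnot6l* had 62.4, 64.8 and 73.6 CPM against 54.1, 58.7 and 62.9 CPM, with 5 of 6 KO-labelled libraries below all WT-labelled ones (log2 fold change -0.18, standard error 0.05, edgeR adjusted p = 0.0501). *Cnot6* had 62.5, 67.4 and 73.5 CPM against 53.1, 61.7 and 66.3 CPM, with overlap (-0.15, standard error 0.06, edgeR adjusted p = 0.187). *Cnot7* had 108, 111 and 116 CPM against 109, 112 and 114 CPM, and its log2 fold change was -0.01 (standard error 0.03). *Cnot8* had 52.2, 53.1 and 54.8 CPM against 49.8, 52.8 and 54.7 CPM, for -0.02 (standard error 0.03). On the per-kilobase scale the summed CAF1-type level was 39.4 ± 0.48 and 39.1 ± 0.80, and the CCR4-type level 16.7 ± 1.04 and 14.8 ± 1.08 (SD, n = 6 each). The shares within both pairs overlapped between the labels. The remaining CCR4-NOT members *Cnot2*, *Cnot3*, *Cnot4* and *Cnot10* had log2 fold changes from -0.07 to 0.03, with standard errors of 0.03 to 0.04.

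*Pan2*, the nuclease that makes the first trimming of the tail, had 35.9, 36.6 and 38.8 CPM against 36.02, 37.0 and 40.8 CPM (log2 fold change 0.04, standard error 0.04). Its adaptor *Pan3* had 55.1, 58.7 and 61.0 CPM against 51.1, 57.5 and 63.4 CPM (-0.03, standard error 0.05). Both genes overlapped between the labels. The antiproliferative proteins of the BTG/TOB family bind CAF1 and speed deadenylation. *Tob1* had the highest log2 fold change of all 43 members, 0.12 (standard error 0.05), with 24.6, 27.3 and 29.1 CPM against 28.4, 29.5 and 30.9 CPM. All 6 KO-labelled libraries were above the WT-labelled mean, but the groups overlapped and the adjusted p was 0.201 by edgeR. *Tob2* had 19.9, 23.3 and 23.6 CPM against 20.6, 22.0 and 25.2 CPM, a log2 fold change of 0.00 (standard error 0.06). *Btg1*, of the same family, was the least precise member within KO-labelled libraries (coefficient of variation 18.2%), from 25.0 to 35.1 CPM in WT-labelled and 22.6 to 37.2 CPM in KO-labelled libraries, with -0.02 (standard error 0.11). Changes of a size like that of *Ago3* were therefore less detectable for *Btg1* than for its neighbours in the list.

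**Figure D3:**
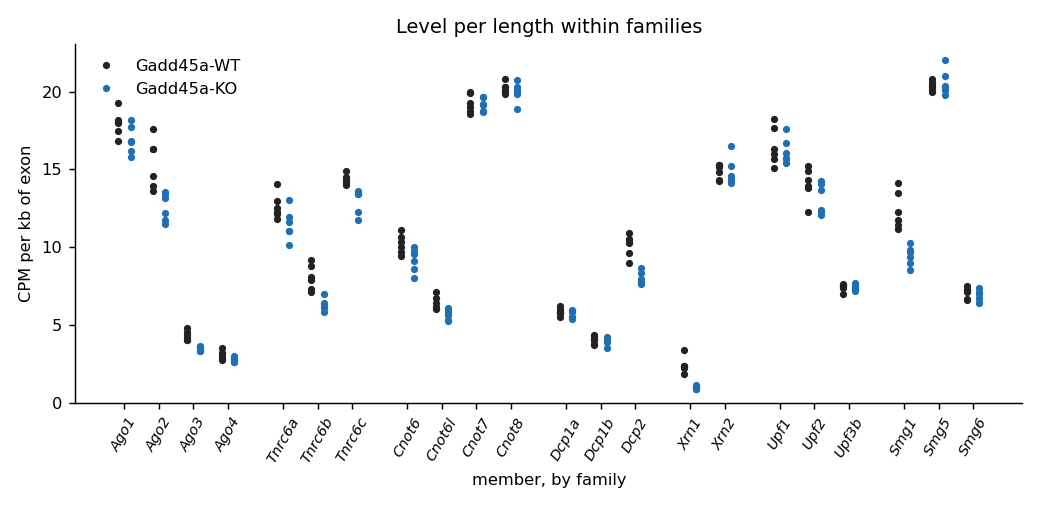
Level per length (y axis, CPM per kilobase of exon) of 22 members arranged by family, with 1 point per library, WT-labelled in black and KO-labelled in blue. *Xrn1* (0.991 on average in KO-labelled libraries) is the lowest on this scale of the genes drawn. The 2 groups of points separate for *Ago2*, *Ago3*, *Tnrc6b*, *Tnrc6c*, *Dcp2*, *Xrn1* and *Smg1* but overlap for the other genes drawn.

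Of the 10 members of decapping and 5′-to-3′ decay, 2 were lower at 1% FDR. Of all tested genes 2.62% were lower, and of those from 4.77 kb in length 8.89%. The 2 members are the enzymes that remove the cap and digest the uncapped mRNA. *Dcp2* (ENSMUSG00000024472; NCBIM37 chromosome 18, 44540154 to 44584623, plus strand), the catalytic decapping subunit, had 77.6, 89.7 and 94.0 CPM in WT-labelled and 65.8, 67.8 and 74.6 CPM in KO-labelled libraries. The groups did not overlap (log2 fold change -0.34, standard error 0.05, edgeR adjusted p = 0.00067, n = 6 per label). Its cofactors *Dcp1a* and *Dcp1b* passed neither threshold, and their groups overlapped. *Dcp1a* had 30.9, 32.6 and 34.9 CPM against 30.2, 31.9 and 33.5 CPM, and *Dcp1b* 23.4, 25.7 and 27.5 CPM against 22.2, 24.9 and 26.6 CPM. Both had a log2 fold change of -0.04, with standard errors of 0.04 and 0.05.

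*Xrn1* (ENSMUSG00000032410; NCBIM37 chromosome 9, 95855179 to 95953446, plus strand) showed the largest difference of all 43 members. Its level was 10.3, 12.7 and 18.5 CPM in WT-labelled libraries and 4.90, 5.28 and 6.33 CPM in KO-labelled ones, from 235 to 925 reads per library. The mean was 59.0% lower in KO-labelled libraries (log2 fold change -1.29, standard error 0.12, edgeR adjusted p = 1.67e-05, n = 6 per label). The highest value, 18.5 CPM in the WT-labelled replicate 6, stood clear of the other 5, and without that library the log2 fold change was -1.16 (edgeR adjusted p = 2.78e-06). *Xrn1* kept its direction and passed 1% FDR under every alternative run. It is also a member with a low counted level, at 2.42 CPM per kilobase in WT-labelled libraries against 14.8 for *Xrn2*. The longest annotated 3′ untranslated region of *Xrn1* had 218 nt, and reads past an annotated end were not counted for the gene. Whether such reads have a part in its level, its share or its change was not tested. *Xrn2*, the nuclear relative that acts in transcription termination, had 56.7, 59.7 and 60.8 CPM against 56.1, 57.6 and 65.7 CPM (log2 fold change 0.00 after rounding, standard error 0.04). As a result, *Xrn1* accounted for 11.7 to 18.1% of the summed per-kilobase level of both genes in WT-labelled libraries and for 5.62 to 7.03% in KO-labelled ones.

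The 5 decapping activators, which stimulate DCP2 or bring it to its substrates, did not pass either threshold. *Ddx6*, the RNA helicase of processing bodies, was the most abundant member per length and had 182, 199 and 212 CPM against 172, 185 and 186 CPM (log2 fold change -0.14, standard error 0.04, edgeR adjusted p = 0.0869). *Patl1*, *Lsm1*, *Edc3* and *Edc4* had log2 fold changes from -0.05 to -0.01, with standard errors of 0.03 to 0.04 and overlapping groups.

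Neither exosome nuclease passed the threshold. *Dis3*, the catalytic subunit of the exosome, had 14.8, 16.4 and 18.7 CPM in WT-labelled and 13.3, 14.5 and 15.3 CPM in KO-labelled libraries (log2 fold change -0.20, standard error 0.06, edgeR adjusted p = 0.0714), with 4 of 6 KO-labelled libraries below all WT-labelled ones. *Exosc10*, its nuclear partner, had 48.0, 49.8 and 50.5 CPM against 46.3, 49.3 and 51.8 CPM (0.00 after rounding, standard error 0.03).

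Of the 6 NMD genes *Smg1* alone passed 1% FDR. *Smg1* (ENSMUSG00000030655; NCBIM37 chromosome 7, 125274832 to 125387151, minus strand) encodes the large kinase that phosphorylates the helicase UPF1. Its level was 174, 186 and 219 CPM in WT-labelled and 132, 148 and 160 CPM in KO-labelled libraries, without overlap. It fell by 0.39 on the log2 scale (standard error 0.06, edgeR adjusted p = 0.00149, n = 6 per label), the second largest change of the members. *Upf1* had 69.7, 74.4 and 84.2 CPM against 71.0, 73.3 and 81.1 CPM (-0.03, standard error 0.05). *Upf2* had 67.2, 77.3 and 83.3 CPM against 66.0, 71.3 and 77.9 CPM (-0.10, standard error 0.06), and *Upf3b* 28.1, 30.1 and 30.6 CPM against 28.9, 29.6 and 30.9 CPM (-0.01, standard error 0.03). All 3 UPF genes overlapped between the labels. *Smg5*, an adaptor that recruits decay enzymes to phosphorylated UPF1, had 88.7, 90.5 and 92.5 CPM against 87.8, 90.5 and 97.8 CPM (0.01, standard error 0.03). *Smg6*, the NMD endonuclease, had 55.9, 60.6 and 63.4 CPM against 54.1, 58.0 and 62.4 CPM (-0.04, standard error 0.04).

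**Figure D4:**
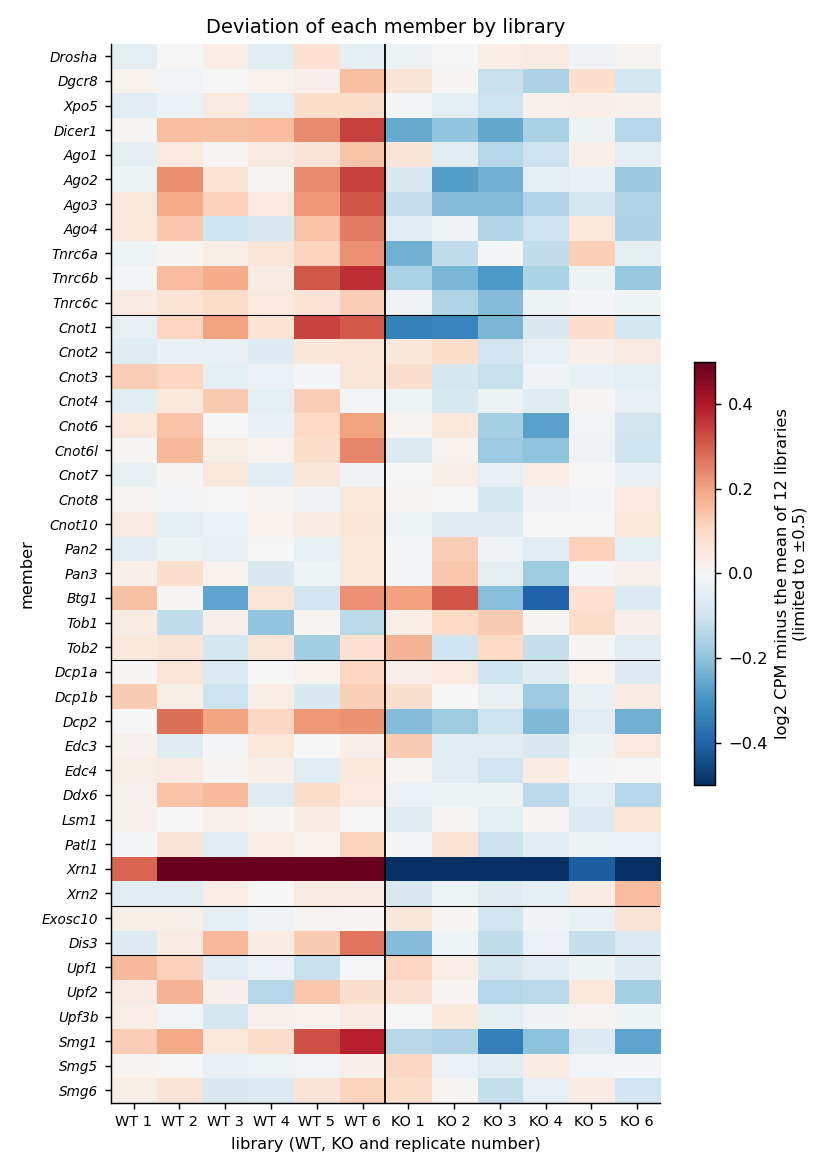
Deviation of each member (rows, in the order of the steps) from its own mean over 12 libraries, in log2 CPM limited to ±0.5, for WT-labelled libraries at the left of the vertical line and KO-labelled ones at the right. Red is above and blue below the mean; the rows of the lower members change colour at the line, WT 6 is the reddest column, and KO 5 is the palest KO column in those rows.

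The lower members also tended to be highest and lowest in the same libraries within a label. The WT-labelled replicate 6 was the highest of its group for 5 of the 6 lower members and for 26 of all 43, and for none was it the lowest. The KO-labelled replicate 5 was the highest of its group for all 6 lower members, and replicate 3 the lowest for 4 of them and for 20 of all 43. The WT-labelled replicate 1 was the lowest of its group for 4 of the 6 lower members and for 15 of all 43. The share of counted reads that fell on no annotated gene was 14.4 to 15.8% in WT-labelled and 13.0 to 14.3% in KO-labelled libraries, and no library of one label reached the other (p = 0.00216 by exact two-sided permutation, which is the lowest value 6 against 6 can give). It was highest in the WT-labelled replicate 6 (15.8%), highest among KO-labelled libraries in replicate 5 (14.3%) and lowest in the KO-labelled replicate 3 (13.0%), whereas its lowest value among WT-labelled libraries was in replicate 4 (14.4%) and not in replicate 1 (14.5%). Its part in the lower levels was not tested.

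All 6 lower members had long transcripts. Their longest annotated transcript had a median of 12.7 kb, against 4.57 kb for the other 37 members, 4.78 kb for all members and 3.00 kb for all tested genes. Individually it was 17.04 kb for *Tnrc6b*, 15.6 kb for *Ago3*, 15.55 kb for *Smg1*, 9.85 kb for *Dicer1*, 8.64 kb for *Dcp2* and 5.50 kb for *Xrn1*. Of the 22 members at or above 4.77 kb, the length from which the 3273 longest tested genes begin, 6 were lower at 1% FDR and a further 3 at 5% FDR only. Of the 3273 tested genes that long 8.89% were lower, against 1.05% of the shorter tested genes, and none of the 21 shorter members was lower. The median log2 fold change was -0.14 for the long members and -0.04 for all tested genes that long, and -0.02 for the shorter members against 0.01 for shorter genes.

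Over the 43 members the Spearman correlation of length with log2 fold change was -0.75, and over 16365 tested genes with a known length it was -0.17. These correlations are across genes measured in the same libraries and describe these data only. When each library received a smooth offset for transcript length, 3 members stayed lower at 1% FDR, against 1.52% of all tested genes. They were *Dicer1* (log2 fold change -0.23, edgeR adjusted p = 0.00846), *Dcp2* (-0.24, edgeR adjusted p = 0.000459) and *Xrn1* (-1.25, edgeR adjusted p = 9.74e-06). *Ago3* (-0.12, edgeR adjusted p = 0.0797), *Tnrc6b* (-0.15, edgeR adjusted p = 0.08) and *Smg1* (-0.20, edgeR adjusted p = 0.0448) no longer passed. Beyond this offset the part of transcript length in the lower levels was not tested.

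**Figure D5:**
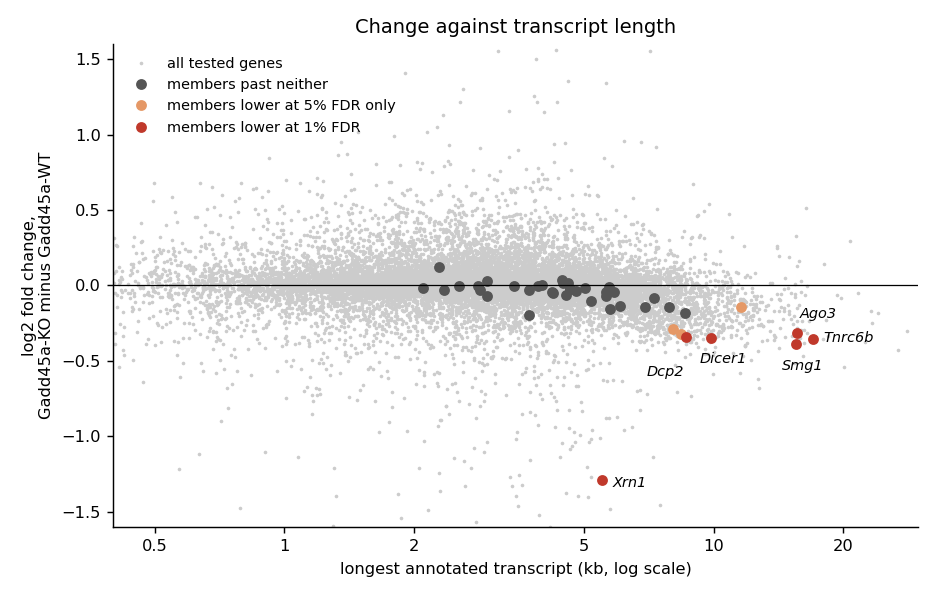
Log2 fold change (y axis, KO-labelled minus WT-labelled) against the length of the longest annotated transcript (x axis, kb, log scale) for all tested genes (small grey points) and the 43 members (large points, coloured by threshold). All 6 lower members lie at or to the right of 5.50 kb; 237 tested genes fall outside the axes and 34 without a length are not drawn.

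The count was repeated for other components of the same pathways, to set beside the members. Of 87 further genes listed for the same steps, 86 were found and tested, and 2 were lower at 1% FDR (2.33%, close to the 2.62% of all tested genes) and none was higher. Both belong to nuclear or cytoplasmic exosome pathways. *Zfc3h1*, which with the helicase MTR4 directs nuclear polyadenylated RNA to the exosome, had 79.2, 84.6 and 91.8 CPM in WT-labelled and 60.5, 66.6 and 70.3 CPM in KO-labelled libraries (log2 fold change -0.36, standard error 0.05, edgeR adjusted p = 0.000492, n = 6 per label). *Skic3* (listed as *Ttc37*), a subunit of the cytoplasmic SKI complex that feeds mRNA to the exosome, had 27.9, 30.1 and 33.3 CPM against 23.2, 24.5 and 26.9 CPM (-0.30, standard error 0.05, edgeR adjusted p = 0.00343, n = 6 per label), and it missed 1% FDR in 6 of 12 fits that left out 1 library. None of the 12 further microRNA genes, 16 deadenylation genes, 18 decapping genes or 18 NMD genes passed 1% FDR, and the median log2 fold change over the 86 genes was 0.005. Whether the members and these genes differ in how often they were lower was not tested.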

How the data were processed

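Poly(A) RNA-seq libraries of hippocampi from 12 mice, 6 labelled *Gadd45a*-WT and 6 *Gadd45a*-KO, were compared. The authors prepared stranded libraries, sequenced single-end reads, aligned them with TopHat 1.4.1 to NCBIM37/mm9 with an Ensembl annotation, counted reads per gene on the reverse strand with HTSeq 0.5.4p3 and deposited whole read counts without normalization or pooling. Rows of the files that name no gene were kept out of library sizes and tests; reads outside genes were 13.0 to 15.8% of the reads inside and outside genes, and alignments at several places and ambiguous reads were counted in further such rows. Groups and replicate numbers come from the labels.

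Gene symbols, positions and lengths came from GENCODE annotation of the same build and covered 37205 of 37991 gene IDs. Where *Tob2* had a second ID (2 to 12 reads), the first was used. All genes were filtered, TMM-normalized and compared with edgeR 4.0.16 (R 4.3.3; quasi-likelihood test, no covariates, Benjamini-Hochberg over 16399 genes, 1% FDR after the study's threshold). Standard errors were obtained by dividing the absolute log2 fold change by the square root of F, and a prior count of 2 entered log2 CPM. Alternatives were DESeq2 1.42.0, RLE factors, an unfiltered table, a minimum of 10 counts per library, 5% FDR, offsets for length or GC content (splines with 5 degrees of freedom), the replicate number as a block, and each library left out; leaving out KO-labelled replicates 2 and 3 together was added after seeing the data. Procedures were tested on simulated data. Single values were compared by exact permutation over 924 assignments of libraries, in Python 3.11.15. In the deepest library 1 read equals 0.0180 CPM. No 2 libraries were duplicates, since all 30 same-label pairs differed beyond counting error.

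The members and the further gene lists were chosen with earlier results of these data known. Values are given for members past either threshold, for the families of paralogous or paired members (*Ago*, *Tnrc6*, *Cnot6* and *Cnot6l*, *Cnot7* and *Cnot8*, *Dcp1*, *Xrn*, *Tob*, *Pan2* and *Pan3*), for the NMD genes and for the lowest and highest member of each step; the other members are given by range, and *Dgcr8*, *Xpo5*, *Btg1* and *Ddx6* were named after their values were seen. Of the further genes, those past 1% FDR are named. Exon-level reads and coverage along transcripts were not analysed here.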

Additional observations from a re-analysis of the deposited data

Results flagged for a closer look

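In 3 of 90 groups of 6 libraries, 1 library stood far from the other 5 by Dixon's 95% criterion, which compares the gap to the nearest library with the range of the group; chance gives about 1 in 20, or 4.5 of 90. All 3 concern the WT-labelled replicate 6. Its *Xrn1* level was 18.5 CPM, where the other WT-labelled libraries had 10.3 to 13.1 CPM. Its *Dgcr8* level was 54.4 CPM against 48.5 to 49.9 CPM. Its *E230016M11Rik* level was 3.88 CPM against 3.27 to 3.47 CPM.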

How the results depend on the processing

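Precision is limited by 6 libraries per label, by counts per gene that do not show where along a transcript reads lie, and by the reads on *Gadd45a*, so that every direction rests on the labels. The count of 6 lower members became 3 with a length offset, and 8 with DESeq2, which added *Ago2* and *Cnot1*; the same 6 genes passed with RLE factors, without a filter, with at least 10 counts in every library and with a GC offset. Leaving out KO-labelled replicates 2 and 3 (chosen after seeing the data) left 4. No member was higher at 1% FDR under any alternative run. Lower microRNA genes numbered 5 at 5% FDR and 1 with a length offset or without those 2 libraries. Lower deadenylation genes numbered 1 with DESeq2 and at 5% FDR, and 0 to 1 over single libraries left out. Lower NMD genes numbered 0 with a length offset. The 2 lower further genes numbered 1 without those 2 libraries and 1 to 2 over single libraries left out. Over all tested genes, lower calls numbered 430 in the reported fit, 661 with DESeq2 and 726 at 5% FDR. They numbered 248 with a length offset and 199 without those 2 libraries. Higher calls in these fits numbered 4, 19, 20, 6 and 3. Lower calls numbered 419 with RLE factors, 421 without a filter, 401 with at least 10 counts and 366 with a GC offset. These are 2.555%, 1.628%, 2.593% and 2.236% of the genes tested in each fit. Higher calls there numbered 5, 5, 4 and 16.

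Changes of sign were seen only in members whose reported log2 fold change lay between -0.071 and 0.015. With a GC offset the values were *Drosha* -0.009, *Cnot7* 0.066, *Pan3* 0.004, *Btg1* 0.034, *Tob2* -0.025, *Lsm1* 0.013, *Xrn2* 0.047, *Upf3b* 0.048 and *Smg5* -0.016. With a length offset they were *Btg1* 0.009, *Edc3* 0.034 and *Smg6* 0.005. With DESeq2 they were *Xrn2* 0.003 and *Exosc10* 0.002, and with RLE factors *Cnot7* 0.000, *Xrn2* 0.004 and *Exosc10* 0.002. Without a filter they were *Cnot7* 0.001, *Xrn2* 0.005, *Exosc10* 0.003 and *Upf3b* 0.001, and with at least 10 counts in every library *Cnot7* 0.002, *Xrn2* 0.006, *Exosc10* 0.004 and *Upf3b* 0.001. Without KO-labelled replicates 2 and 3 they were *Cnot8* 0.001, *Edc3* 0.015, *Xrn2* 0.019 and *Exosc10* 0.017. Over single libraries left out, the ranges were *Cnot7* -0.008 to 0.014, *Cnot8* -0.019 to 0.006, *Pan3* -0.046 to 0.014, *Btg1* -0.078 to 0.060, *Tob2* -0.025 to 0.033, *Edc3* -0.028 to 0.012, *Xrn2* -0.025 to 0.020, *Exosc10* -0.008 to 0.022, *Upf1* -0.044 to 0.014 and *Upf3b* -0.015 to 0.010. The cause was not tested.

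The labels give both groups replicate numbers 1 to 6, but no source says that a number is shared. Same-numbered libraries correlated in their deviations from the group means by 0.13, 0.24, 0.26, 0.18, 0.10 and -0.08 for numbers 1 to 6, and not every library correlated best with its own number, so the numbers were not taken to pair the samples. With the replicate number as a block, 7 members were lower, *Cnot1* of deadenylation being the 1 added, and 509 of all tested genes were lower and 5 higher. With the block and a length offset 5 members were lower (*Dicer1*, *Cnot1*, *Dcp2*, *Xrn1* and *Smg1*), against 1.67% of tested genes. Of these members 1 was a microRNA gene and 1 a deadenylation gene. *Smg1*, lost with the length offset alone, passed again there (-0.20, edgeR adjusted p = 0.00932). Values that changed sign in that fit were *Edc3* 0.032 and *Smg6* 0.004. With the block and a GC offset the deadenylation genes also numbered 1, and values that changed sign were *Drosha* -0.008, *Cnot4* 0.000, *Cnot7* 0.065, *Pan3* 0.003, *Btg1* 0.025, *Tob2* -0.026, *Lsm1* 0.013, *Xrn2* 0.046, *Upf3b* 0.049 and *Smg5* -0.016.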
